A study of Rattus norvegicus with 34 samples.

Results

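The unfolded protein response, the program by which a cell meets a load of unfolded protein in its endoplasmic reticulum (ER), was followed through 10 listed genes: Xbp1, Hspa5, Dnajb9, Pdia4, Herpud1, Calr, Hsp90b1, Sdf2l1, Creld2 and Manf. The genes were taken as listed, and their probes were named from the platform annotation. Of the 10, 9 were measured, each by 1 probe, among 21756 genes with a name on the array. Hsp90b1 was named from the deposited probe description, under its older symbol Tra1. Sdf2l1 is not among the 9, because the deposited description and the platform annotation disagree on the probe that carries its name: the first calls it Sdf2l1, the second Ccdc116.

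The arrays held RNA of primary rat cortical neurons grown for 21 days from Hooded Wistar embryos of day 17 per the labels' protocols (the sample characteristics give Wistar and gestation day 15 to 16), in which bundles of axons were cut with a knife or stretched by puffs of oxygen. No label says which injury was called mild and which severe. Controls gave 6 arrays. Mild injury was sampled with 3 arrays per time, at 0, 8, 15, 24 and 48 h, and severe injury with 3 per time at 8, 15, 24 and 48 h and 1 at 0 h. Each time point pooled at least 12 wells. The cells came from 3 cultures, each of another pregnant rat, but no label ties a replicate number to a culture. The p-values thus reflect no more than the spread from array to array, part of which may be technical.

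Every deposited value is a ratio. On 18 arrays (control and mild 0 to 24 h) the divisor was the mean of control 1 to 3, and on 16 arrays (mild 48 h and every severe array) it was the mean of the 3 arrays labelled mild 48 h. Levels were therefore compared only within each of the 2 sets, and a value of 0 on the log2 scale is the level of the divisor. A ratio gives neither the signal level nor detection. Scanner signals exist for the same arrays but were used only to compare the order of the columns. The labelled cell type was therefore not checked against its markers. The array labels also carry a doubt. In the table of scanner signals, the columns that match 18 of the arrays stand at other places than in the table of ratios. Read in the order of the signal table, the 3 reference arrays called mild 48 h here are control 4 to 6. Control 4 to 6 here are then mild 0 h, and each mild group of 0 to 24 h moves on to the next later time. The deposited labels are used throughout. The severe arrays keep their labels in either order, but the group they are compared with does not.

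Unfolded protein in the ER is sensed by 3 membrane proteins, IRE1 (gene Ern1), PERK (Eif2ak3) and ATF6. IRE1 splices the Xbp1 mRNA, and the spliced form encodes a transcription factor that, together with cleaved ATF6, raises the genes of chaperones, disulfide isomerases and ER-associated degradation. PERK slows translation and raises ATF4 and its targets. Cells that secrete much protein run this program at a high level, and neurons use it for membrane and secreted proteins and engage it after axon injury. The 1 Xbp1 value per array does not separate spliced from unspliced mRNA.

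ATF6 is known to act through the ER stress element (ERSE), which was searched as CCAAT, 9 bases of any kind and CCACG, and its short form ERSE-II, searched as ATTGG, 1 base of any kind and CCACG. RefSeq promoter sequences of the build GRCr8 (250 bases before and 50 after a transcript start, both strands searched) were at hand for 9 of the 10 listed genes, all but Manf. An ERSE stood in 5 of the 9, Xbp1, Hspa5, Calr, Creld2 and Hsp90b1, which holds 2 copies, against 22 of 33469 promoters in all (0.0657%). ERSE-II stood in 1, Herpud1, against 17 of 33469 (0.0508%). The list names genes of the response in which ATF6 acts, so these shares are a description, and enrichment was not tested. None of the 9 held UPRE (TGACGTGG, 0.595% of all promoters) or CRE (TGACGTCA, 1.83%), and no ERSE or ERSE-II letters were found in the windows of Dnajb9, Pdia4 and Sdf2l1. The outer parts of the element are common alone: CCAAT stood in 37.5% and CCACG in 31.6% of all promoters, and each in 9 of 9 here. The elements are given because they are the shared feature of genes that behaved differently on the arrays. Each is written from CCAAT (ERSE-II from ATTGG) to CCACG, which stand in capitals, and lies on the strand of its gene or opposite to it.
Xbp1 ERSE, chr14:84604558-84604576: CCAATcgcagacggCCACG
Hspa5 ERSE, chr3:38452973-38452991: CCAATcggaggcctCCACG
Herpud1 ERSE-II, chr19:10614821-10614831: ATTGGgCCACG
Calr ERSE, chr19:40213135-40213153: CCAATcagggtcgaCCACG
Hsp90b1 ERSE, chr7:23012451-23012469: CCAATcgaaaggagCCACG
Hsp90b1 ERSE, chr7:23012347-23012365: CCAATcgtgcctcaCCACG
Creld2 ERSE, chr7:121789239-121789257: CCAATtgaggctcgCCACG

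**Figure D1:**
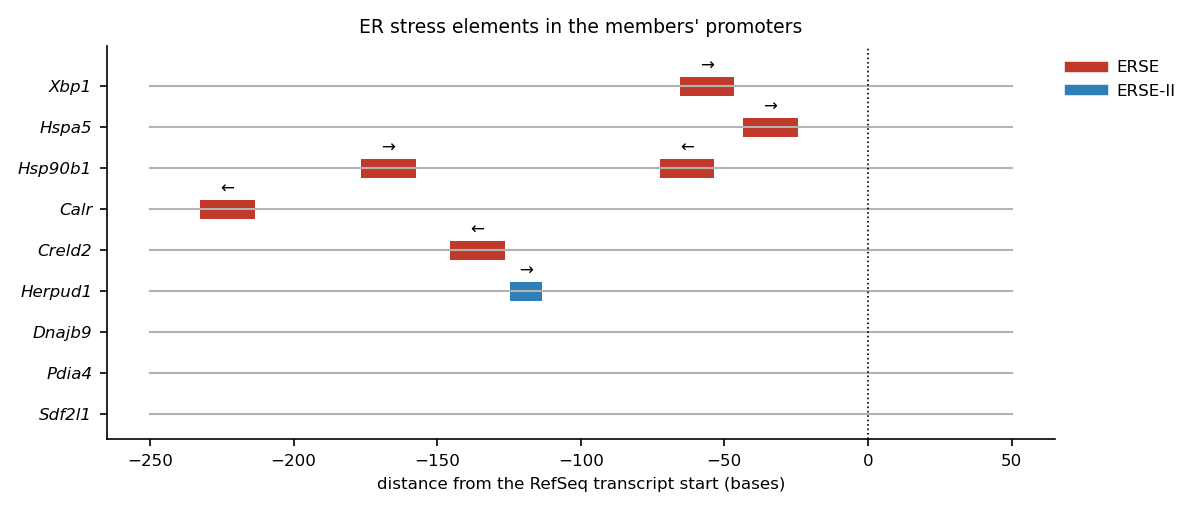
Position of ERSE (red) and ERSE-II (blue) in the promoter windows of the 9 listed genes with a RefSeq promoter, by distance from the transcript start in bases (0 on the horizontal axis). Arrows give the orientation of the element. The elements nearest to the start are those of Hspa5 (-43 to -25) and Xbp1 (-65 to -47), and 3 genes hold none.

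The promoters of 4 genes are given in full for the 250 bases before the start, 2 of genes that were lower on the severe arrays (Xbp1 and Hspa5) and 2 of genes that were not called there (Creld2, with an ERSE, and Dnajb9, without one). Capitals mark CCAAT and CCACG of an ERSE, read on either strand. For Creld2 and Dnajb9, as for Herpud1, the start used in the table is not the outermost start of the gene.
Xbp1 promoter, chr14:84604373-84604622, plus strand: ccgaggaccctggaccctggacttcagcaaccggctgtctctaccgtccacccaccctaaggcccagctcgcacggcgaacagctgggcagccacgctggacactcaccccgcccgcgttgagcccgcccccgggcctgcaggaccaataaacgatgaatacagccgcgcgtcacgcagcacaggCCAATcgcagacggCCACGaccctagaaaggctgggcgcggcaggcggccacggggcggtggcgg
Hspa5 promoter, chr3:38452766-38453015, plus strand: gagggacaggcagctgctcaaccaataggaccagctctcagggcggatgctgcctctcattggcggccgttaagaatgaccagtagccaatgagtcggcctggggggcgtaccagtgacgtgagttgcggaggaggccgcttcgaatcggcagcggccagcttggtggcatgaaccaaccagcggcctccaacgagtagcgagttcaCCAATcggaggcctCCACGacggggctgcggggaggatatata
Creld2 promoter, chr7:121789134-121789383, plus strand: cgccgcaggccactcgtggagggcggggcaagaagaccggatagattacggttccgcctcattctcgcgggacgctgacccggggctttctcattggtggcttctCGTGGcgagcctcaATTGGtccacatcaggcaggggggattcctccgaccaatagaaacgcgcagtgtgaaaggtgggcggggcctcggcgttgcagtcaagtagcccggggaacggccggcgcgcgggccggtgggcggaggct
Dnajb9 promoter, chr6:67002052-67002301, minus strand: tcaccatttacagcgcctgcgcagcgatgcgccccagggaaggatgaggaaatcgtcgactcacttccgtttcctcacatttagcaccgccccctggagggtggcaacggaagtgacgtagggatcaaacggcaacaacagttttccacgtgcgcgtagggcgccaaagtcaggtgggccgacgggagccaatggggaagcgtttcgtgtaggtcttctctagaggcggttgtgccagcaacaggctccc

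Xbp1, Hspa5, Pdia4, Herpud1 and Manf were lower on the severe arrays than on the arrays labelled mild 48 h. Averaged over 8, 15, 24 and 48 h, the severe arrays stood at 42.3% of the mild 48 h level for Xbp1, 54.9% for Pdia4, 60.6% for Herpud1, 62.8% for Hspa5 and 68.9% for Manf. The other 4 members did not pass the test, and the values of Dnajb9 (92.5%) and Creld2 (95.8%) were closest to the reference. In this average, 5 of 9 members were called lower (limma, adjusted p under 0.05) and none higher, where 8.73% of all 21864 features were called lower. The median log2 difference was -0.67 over the members and 0.01 over all features. The comparison asks how the severe injury differs from the mild one at its latest time, with the reservation on labels given above.

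Xbp1 encodes the transcription factor made after splicing by IRE1. Its log2 ratios were -1.12, -1.08 and -1.0 at severe 8 h, -1.25, -1.31 and -1.08 at 15 h, -1.43, -1.18 and -1.34 at 24 h, and -1.31, -1.82 and -1.03 at 48 h. On the arrays labelled mild 48 h they were -0.08, 0.11 and -0.03. All 12 severe arrays lay below all 3 mild 48 h arrays, with no overlap at any time. The average difference was -1.24 ± 0.12 (SE, adjusted p = 1.89e-05), and Xbp1 ranked 292 of 21864 features by p. Xbp1 was also called at each time alone, with differences of -1.06 ± 0.15 at 8 h (adjusted p = 0.000791), -1.21 ± 0.15 at 15 h (0.000272), -1.31 ± 0.15 at 24 h (0.000144) and -1.38 ± 0.15 at 48 h (8.53e-05). The tests at single times share the same 3 mild 48 h arrays and a pooled spread, so they are not independent of each other.

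Among the chaperones of the ER lumen, Hspa5 encodes BiP, the Hsp70 chaperone that also holds the sensors inactive. Its log2 ratios were -0.55, -0.93 and -0.66 at severe 8 h, -0.73, -0.74 and -0.32 at 15 h, -0.47, -0.70 and -0.57 at 24 h, and -0.69, -1.42 and -0.28 at 48 h. All 12 lay below the mild 48 h arrays, which were at -0.06, 0.07 and -0.01. The average difference was -0.67 ± 0.18 (adjusted p = 0.0222), and of the single times only 48 h was called (-0.79 ± 0.22, adjusted p = 0.0385). Without replicate 2 of severe 48 h, the lowest array, the 48 h difference was -0.48 and no longer called (adjusted p = 0.0688). The call did not depend on that array alone. Of the 6 fits that each left out 1 compared array, only 1 called Hspa5 at 48 h (limma, adjusted p from 0.00368 to 0.124).

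Hsp90b1 encodes GRP94, the Hsp90 of the ER. Its severe ratios ran from -1.61 to -0.0009, with a median of -0.86, so that replicate 3 of severe 15 h overlapped the mild 48 h arrays (-0.14, 0.14 and -0.01). The average difference of -0.78 ± 0.26 was larger than that of Hspa5 but did not pass (adjusted p = 0.0696). Calr encodes calreticulin, a lectin chaperone that binds calcium. Its severe ratios ran from -0.89 to 0.07 with a median of -0.45 and overlapped the reference. The average difference of -0.41 ± 0.18 did not pass (adjusted p = 0.189).

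Dnajb9 (ERdj4), a cochaperone of BiP, gave severe ratios from -0.77 to 0.37 around a median of -0.18. The mild 48 h arrays lay within that range, and the average difference was -0.11 ± 0.18 (adjusted p = 0.80). Creld2, a secreted ER protein with disulfide isomerase activity, was at -0.38, -0.37 and 0.24 at severe 8 h, 0.0003, -0.06 and 0.38 at 15 h, 0.18, -0.23 and -0.11 at 24 h, and -0.0037, -0.76 and 0.30 at 48 h. These values lay on both sides of those labelled mild 48 h (-0.19, 0.04 and 0.14). Its average difference was -0.06 ± 0.20 (adjusted p = 0.913). Its promoter holds an ERSE, as do those of Xbp1 and Hspa5. Of the 5 members with an ERSE, 2 were called lower in the average (Xbp1 and Hspa5), where 8.73% of all features were. Pdia4, with neither ERSE nor ERSE-II in its window, was called too.

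Pdia4 (ERp72), a disulfide isomerase, was at -0.85, -1.17 and -0.64 at severe 8 h, -0.99, -1.02 and -0.18 at 15 h, -0.54, -1.03 and -1.24 at 24 h, and -0.88, -1.58 and -0.42 at 48 h. The mild 48 h arrays spread from -0.28 to 0.19, the widest of the members, and replicate 3 of severe 15 h fell within them. The average difference was -0.86 ± 0.24 (adjusted p = 0.0289). Herpud1, a membrane protein of ER-associated degradation, was at -0.92, -0.71 and -0.52 at severe 8 h, -0.78, -0.75 and -0.42 at 15 h, -0.46, -1.15 and -0.86 at 24 h, and -0.44, -1.33 and -0.36 at 48 h. No severe array overlapped the reference (-0.11, 0.06 and 0.05), and the average difference was -0.72 ± 0.19 (adjusted p = 0.0199). Manf, a secreted ER protein with neurotrophic activity, ran from -1.20 to -0.22 with a median of -0.53 on the severe arrays. It lay below all 3 reference arrays (-0.11, 0.08 and 0.02) on every one, with an average difference of -0.54 ± 0.16 (adjusted p = 0.0372).

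In the average over times, 4 of 9 members (Xbp1, Hspa5, Herpud1 and Manf) had all 12 severe arrays below the reference, where 8.53% of all features did. At single times 1 of 9 was called lower at 8, 15 and 24 h (background 5.14%, 6.39% and 6.35%) and 2 of 9 at 48 h (background 7.77%). Counting separation alone, 7 members lay wholly below the reference at 8 h (13.5% of all features), 4 at 15 h (16.2%), 7 at 24 h (15.7%) and 6 at 48 h (14.8%). Between severe 48 h and severe 8 h no member was called, and the percentage of all features called was 0%. That test (limma) found 1715 features but no member at an unadjusted p under 0.05, and fitting all 34 arrays together called 15 features. Xbp1 came closest among the members, with -0.32 ± 0.15 between 48 and 8 h (unadjusted p = 0.058). The median over the members was -0.07 beside -0.29 over the proteasome and oxidative phosphorylation genes. Centred on those genes it turned to 0.19, and leaving out 1 array moved it between -0.33 and 0.23, so that no direction held.

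**Figure D2:**
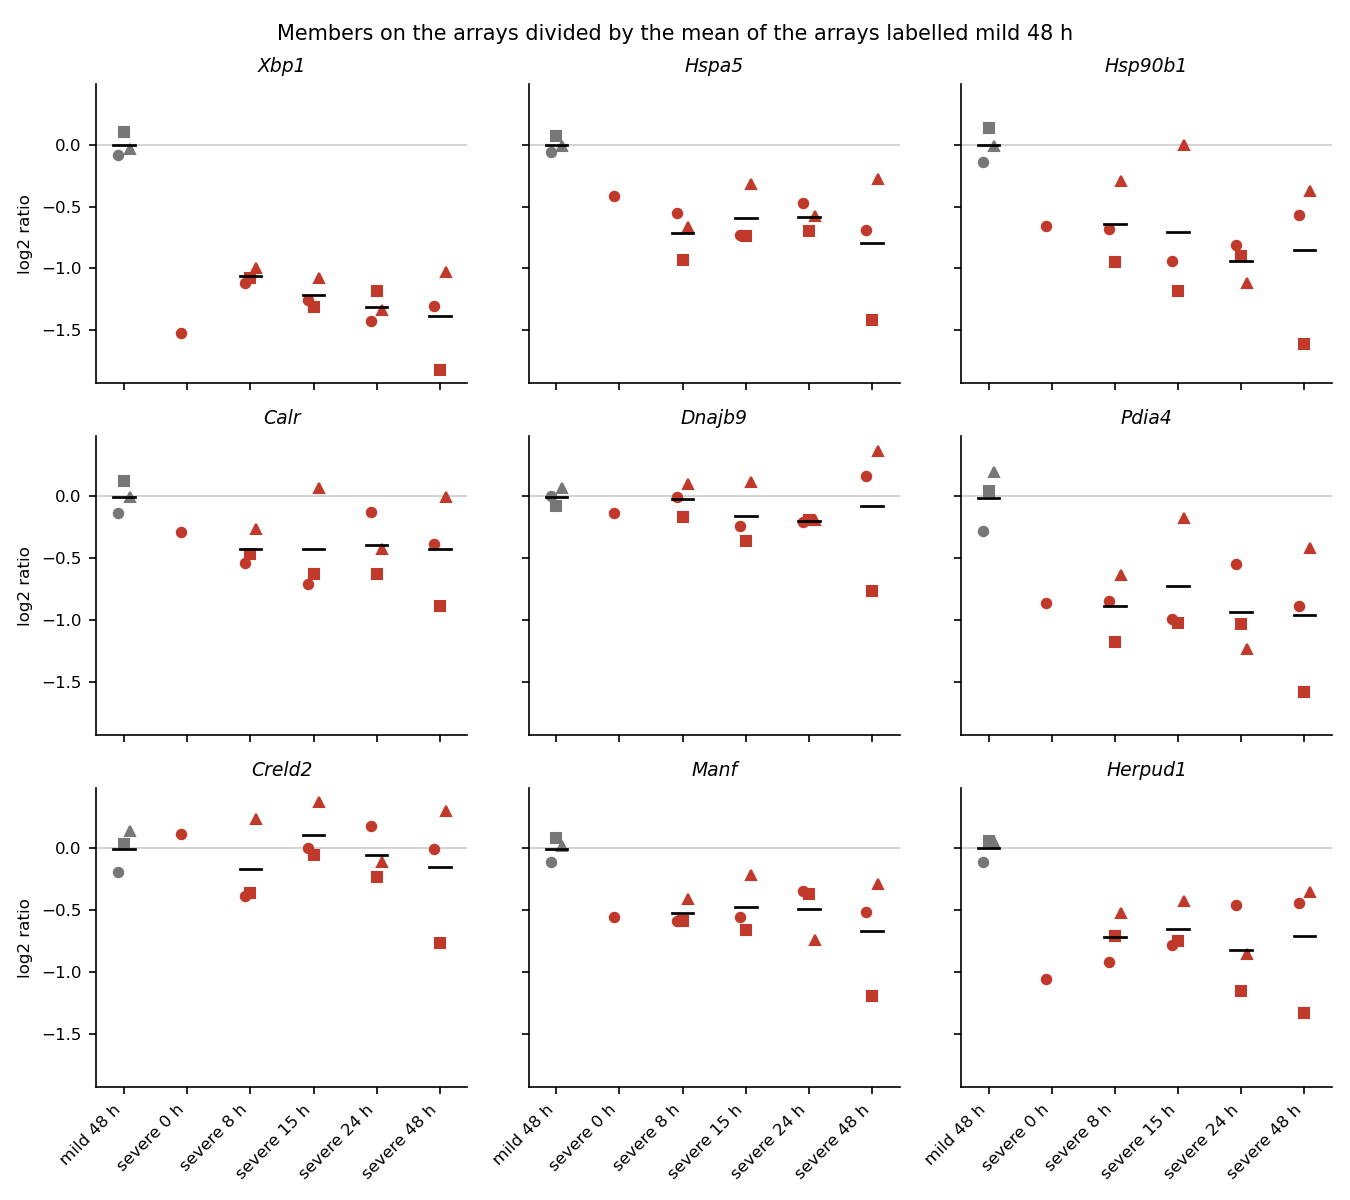
Log2 ratio to the mean of the arrays labelled mild 48 h, for the 9 measured members by group. Each point is 1 array (circle, replicate 1, square, replicate 2, triangle, replicate 3), grey for mild 48 h and red for severe, and black bars are group means. Xbp1 lies between -1.82 and -1.0 on the 12 severe arrays of 8 to 48 h, while Creld2 and Dnajb9 scatter around 0, and replicate 2 of severe 48 h (square) is the lowest of the 12 for every member.

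Xbp1 was also set against each other member within arrays, as a description with no test, since Xbp1 was chosen for having the largest difference of the 9. The log2 ratio of Xbp1 minus that of the other member was lower in the mean of the 12 severe arrays than in that of the 3 mild 48 h arrays by a difference of -1.18 for Creld2, -1.13 for Dnajb9, -0.83 for Calr and -0.71 for Manf. The difference was -0.57 for Hspa5, -0.52 for Herpud1, -0.46 for Hsp90b1 and -0.38 for Pdia4. All 12 severe arrays lay below the reference for each gene but Herpud1 (11) and Pdia4 (9).

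**Figure D3:**
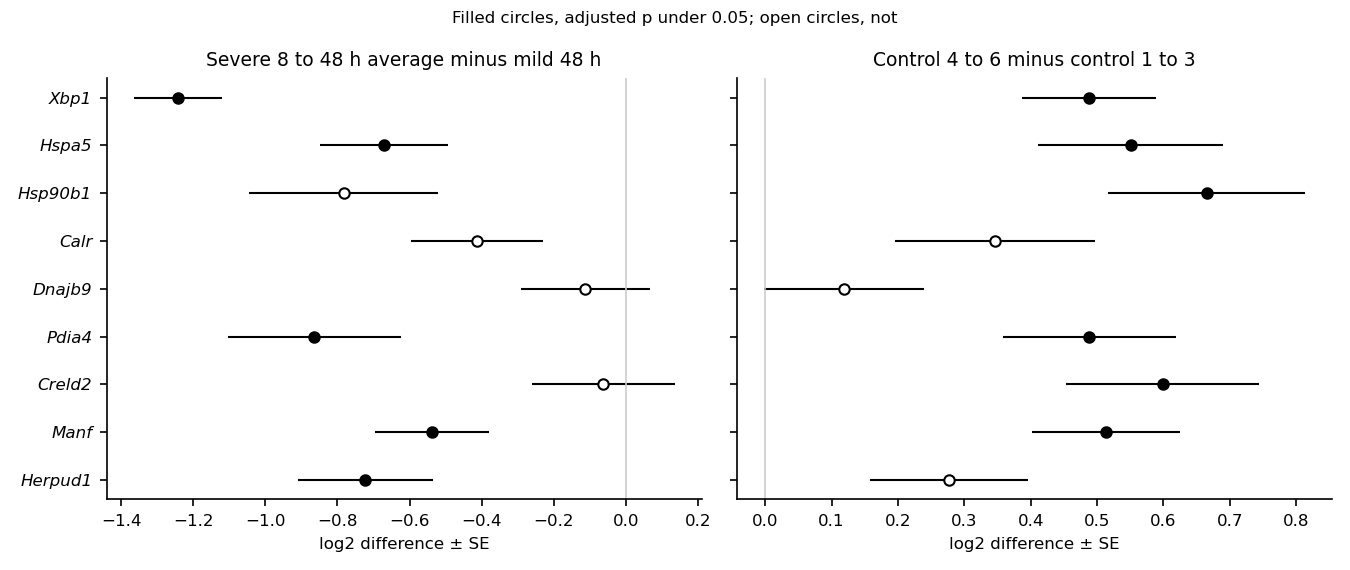
Log2 difference and its standard error for each member, left for the severe average against the arrays labelled mild 48 h (12 and 3 arrays), right for control 4 to 6 against control 1 to 3 (3 and 3 arrays). Filled circles passed an adjusted p of 0.05. Creld2 is at -0.06 on the left and at 0.60 on the right, and Herpud1 is called on the left only; whether the comparisons differ was not tested.

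The calls of Hspa5, Pdia4 and Herpud1 in the average rested on few reference arrays, and that of Manf on single severe arrays as well. Of the 15 fits that each left out 1 array, 12 called Hspa5, 12 Pdia4 and 12 Herpud1, but only 7 called Manf. Leaving out any 1 of the 3 mild 48 h arrays left Xbp1 as the only called member, while the median over the members stayed between -0.70 and -0.64. With the chip as a block, the count was also 1 (Xbp1, -1.32 ± 0.18, adjusted p = 0.00259), and the median over the members was -0.62. Calls over all features fell too, from 3165 to 1447 with the chip as a block. Leaving out any 1 array of either group gave 2077 to 4124 of them. Chip 3 held 12 arrays, among them most severe arrays and every one of severe 48 h, beside control 5 and 6 and no mild array. Chip and severe injury can therefore not be fully told apart. On 3 chips a severe and a mild 48 h array lay side by side, the severe one from 8, 15 or 24 h. Within these pairs Xbp1 differed by -1.53 to -1.09, Hspa5 by -0.67 to -0.54, Pdia4 by -1.04 to -0.59, Herpud1 by -0.97 to -0.52 and Manf by -0.60 to -0.43, all 3 times downward, and Creld2 by -0.52 to 0.19. Scaled to proteasome and oxidative phosphorylation genes, 7 of 9 members were called, where 3222 of all features were called in either direction. Calr (-0.49 ± 0.12, adjusted p = 0.00925) and Hsp90b1 (-0.86 ± 0.16, 0.000782) were added, and Dnajb9 and Creld2 were still not called.

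Other cell type markers moved with the severe group. In the severe average, 8.73% of all features were called lower. Of 19 measured fibroblast and meningeal markers, 16 were lower and none higher in the severe average, and the median of the list ran from -3.59 to -2.12 on the 13 severe arrays against -0.04 to 0.05 on mild 48 h. Lum and Dcn, which encode matrix proteoglycans, differed by -4.87 ± 0.70 and -4.34 ± 0.67 (adjusted p = 0.000403 and 0.000689). Fibroblasts are secretory cells that use the ER program strongly, and in bulk RNA fewer cells of a type and less RNA per cell cannot be told apart. The part of these cells in the members' values was not tested.

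Glial and ciliated cell markers moved the other way. Of all 21864 features, 1256 were called higher and 1909 lower in the severe average. Astrocyte markers were higher in 6 of 9 (list medians 0.60 to 1.38 on the severe arrays, -0.02 to 0.01 on mild 48 h), led by S100b (2.84 ± 0.24, adjusted p = 4.69e-06) and Mlc1 (1.86 ± 0.22, 9.66e-05). Oligodendrocyte lineage markers were higher in 7 of 12 (medians 0.71 to 1.95 against -0.02 to 0.01), with Nkx2-2 at 2.38 ± 0.28 (adjusted p = 8.11e-05). Ependymal and motile cilia markers were higher in 9 of 9 (medians 1.73 to 3.77 against -0.12 to 0.09), with Dynlrb2 at 4.38 ± 0.35 (adjusted p = 2.97e-06) and Cfap126 at 4.10 ± 0.40 (1.75e-05). Of 6 endothelial markers 2 were lower, Emcn by -0.53 ± 0.06 (adjusted p = 9.34e-05) and Cldn5 by -0.35 ± 0.06 (0.00187). None of 9 microglia markers passed, the largest differences being those of C1qb (-1.07 ± 0.58, adjusted p = 0.31) and C1qa (-0.83 ± 0.29, 0.0869).

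Neuron markers split the severe arrays. The median of 14 neuron markers was between -2.04 and -1.40 on 6 of the 13 severe arrays, -0.72 on replicate 2 of severe 8 h, and between 0.08 and 0.34 on the other 6. In the average, 2 of 14 were lower and none higher, where 8.73% of all features were called lower. Tubb3, neuronal beta-tubulin, differed by -1.89 ± 0.44 (adjusted p = 0.0109), and Stmn2, a growth-associated microtubule regulator, by -1.14 ± 0.42 (0.102). With the 6 severe arrays of 8 to 48 h whose neuron marker median was under -0.5 left out, an alternative chosen after the data were seen, 6 of 9 members were called lower, while the calls over all features went from 3165 to 4451 in either direction, and the median over the members was -0.42. Xbp1 then stood at -1.12 ± 0.08 (adjusted p = 0.000125), Hspa5 at -0.45 ± 0.07 (0.00441), Dnajb9 at 0.09 ± 0.06 (0.43) and Creld2 at 0.15 ± 0.16 (0.662).

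Replicate 2 of severe 48 h stood apart for the housekeeping genes and was the lowest severe array for the members and the neuron markers. It was the lowest for neither the fibroblast markers (median -3.32) nor the cilia markers (2.40). It had the lowest value of the 12 severe arrays of 8 to 48 h for all 9 members, a member mean of -1.26, the lowest neuron marker median (-2.04) and a median of -0.63 over 73 proteasome and oxidative phosphorylation genes, which lay between -0.02 and 0.34 on the other severe arrays. Without it, 6 of 9 members were called lower in the average, and 1 of 9 at 48 h. In the comparison at 48 h the signs of Dnajb9 and Creld2 turned without it, to 0.27 and 0.15.

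**Figure D4:**
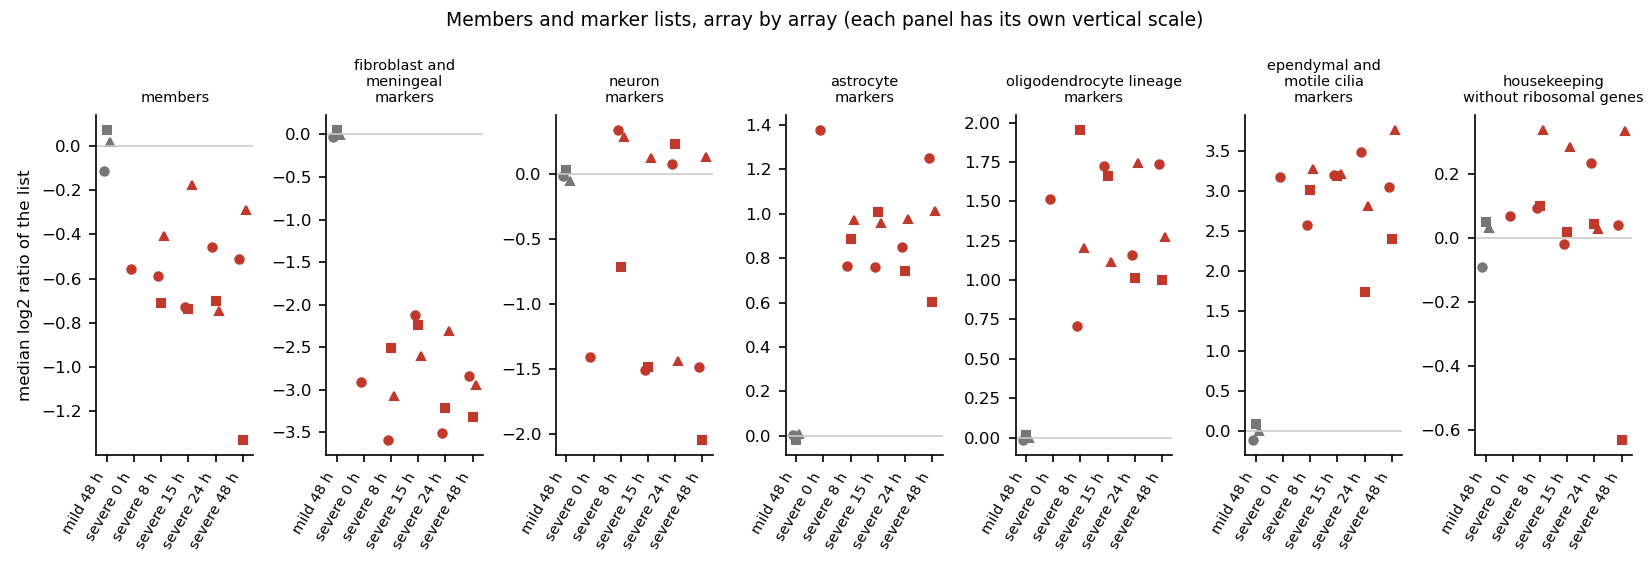
Median log2 ratio of the members and of 6 marker lists on each array of the set divided by mild 48 h (grey, mild 48 h, red, severe; symbols give the replicate, and each panel has its own vertical scale). The fibroblast list lies below -2.12 and the cilia list above 1.73 on every severe array, the neuron list falls into a low and a high group of severe arrays, and replicate 2 of severe 48 h has the lowest member and housekeeping medians.

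Of the sensors and their proteases and transcription factors, 2 of 9 measured genes were lower in the severe average and none higher. The list median was -0.15, and 8.73% of all features were called lower. Creb3l1 (OASIS), an ER-anchored transcription factor of secretory and bone-forming cells, differed by -2.82 ± 0.18 (adjusted p = 3.56e-07), and all 12 severe arrays, from -3.19 to -2.43, lay below the reference. Mbtps1, the site-1 protease that cleaves ATF6 in the Golgi, differed by -0.60 ± 0.16 (adjusted p = 0.0205). Eif2ak3 did not pass at -0.36 ± 0.13 (adjusted p = 0.101), nor did Ern1 at -0.03 ± 0.05 (0.823) or Atf6 at 0.06 ± 0.05 (0.577). Its relative Atf6b was at 0.11 ± 0.17 (0.804), Mbtps2, the site-2 protease, at -0.15 ± 0.09 (0.368), Creb3 at -0.20 ± 0.16 (0.537) and Creb3l2 at -0.09 ± 0.05 (0.336).

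Among further genes of the pathway all but 1 of those called were lower, in lists that were chosen with earlier results of these data known. Disulfide isomerases and oxidases had 8 of 12 genes lower and none higher (median -0.63), led by P4hb (-0.95 ± 0.12, adjusted p = 0.000132), Tmx1 (-1.29 ± 0.16, 0.000151) and Pdia5 (-1.21 ± 0.18, 0.000549). Of 15 further chaperones and cochaperones 4 were lower and none higher (median -0.17). These were led by the calcium-binding proteins Rcn1 (-1.26 ± 0.15, adjusted p = 7.26e-05) and Calu (-1.44 ± 0.20, 0.000286) and by Dnajc3 (-0.90 ± 0.18, 0.00358), a cochaperone of BiP that also inhibits PERK. ER-associated degradation had 2 of 13 lower and none higher (median -0.10), a share nearer to the 8.73% of all features called lower than that of the isomerases, Sel1l, a subunit of the Hrd1 ligase complex (-0.58 ± 0.15, adjusted p = 0.0228), and the conjugating enzyme Ube2j1 (-0.33 ± 0.09, 0.0244). The share called lower thus went from 8 of 12 for the isomerases to 2 of 13 for degradation, and whether the lists differ was not tested.

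Entry into and exit from the ER showed the same direction among the called genes, where 8.73% of all features were called lower. Glycosylation and glycoprotein folding had 6 of 10 lower and none higher (median -0.57): Lman1, a cargo lectin (-1.57 ± 0.24, adjusted p = 0.000595), Stt3a, a subunit of the oligosaccharyltransferase (-0.54 ± 0.08, 0.000723), and Mogs, glucosidase I (-0.81 ± 0.17, 0.0053). Translocation had 4 of 12 lower and none higher (median -0.19), led by Ssr2 (-1.01 ± 0.10, adjusted p = 1.43e-05) and Ssr4 (-0.92 ± 0.14, 0.000484) of the translocon-associated complex and by the channel subunit Sec61a1 (-0.28 ± 0.06, 0.00594). Of 10 genes of KDEL receptors and ER to Golgi transport 5 were lower and none higher (median -0.42), led by the coat proteins Sec24d (-1.24 ± 0.18, adjusted p = 0.000352) and Sec31a (-0.66 ± 0.10, 0.000595) and by the receptor Kdelr3 (-1.77 ± 0.26, 0.000503). Of 17 ATF4 and CHOP targets 9 were lower and 1 higher (median -0.64). The stress-induced pseudokinase Trib3 (-2.42 ± 0.10, adjusted p = 8.41e-09), the glutathione-degrading enzyme Chac1 (-1.09 ± 0.09, 3.78e-06) and asparagine synthetase Asns (-1.36 ± 0.14, 2.99e-05) led that list.

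Of the 16 genes besides the members with an ERSE in the window, 8 were measured. In the severe average 3 of these were called lower and none higher (median -0.39), where 8.73% of all features were called lower. The 3 were Zfp57 (-1.08 ± 0.19, adjusted p = 0.00196), Dnajc3 and Ankmy2 (-0.44 ± 0.12, 0.0265). Canx, the membrane lectin chaperone calnexin, was at -0.54 ± 0.20 (adjusted p = 0.0977). Of 8 measured genes besides Herpud1 with an ERSE-II, only Nucb1, a Golgi calcium-binding protein, was called (-1.06 ± 0.17, adjusted p = 0.000734), and Hyou1, an ER chaperone, was at -0.02 ± 0.04 (0.824). An element in the window is a match of letters and says nothing about binding. The genes of this paragraph were chosen by the element, not by their values, except for those named one by one.

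Across the 13 severe arrays, the mean log2 ratio of the 9 members was compared with every other gene. The 8 genes outside the list with the highest Pearson correlation to it were Trappc12 (0.99), Spop (0.98), Ube2e3 (0.98), Ccdc47 (0.97), Med25 (0.97), Gbe1 (0.97), Dtymk (0.97) and Anp32a (0.97). Over the 18 control and mild arrays of the other set, the same genes correlated at 0.50 (Med25) to 0.88 (Ube2e3). Arrays share their scaling, and replicate 2 of severe 48 h is lowest for the members, so these values only describe the arrays. None of the 8 was called in the severe average, their differences lying between -0.28 (Dtymk) and 0.33 (Med25). Each member is itself part of the member mean, which raises its correlation, so the members' values are not comparable with those of the 8 genes. Among the members, Pdia4 followed the member mean most closely on the severe arrays (0.95) and Xbp1 least (0.72). On the control and mild arrays Xbp1 (0.95) and Hspa5 (0.95) were the closest and Herpud1 the least close (0.43).

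On the arrays divided by control 1 to 3, no member was called against the 6 controls at any time after mild injury. The median log2 difference over the members was 0.10 at 0 h, -0.07 at 8 h, -0.25 at 15 h and -0.13 at 24 h, and 0% of all features were called at each time (limma). These medians depended on the scaling and on the controls used. Centred on the proteasome and oxidative phosphorylation genes, whose own median was 0.15 at 0 h and -0.20 at 15 h, they were -0.04, -0.02, -0.05 and -0.12. Against control 1 to 3 alone the median was 0.35 at 0 h and 0.0019 at 15 h, and against control 4 to 6 alone it was -0.11 and -0.48. At an unadjusted p under 0.05 the test counted 757, 871, 2042 and 1005 features, among them no member at 0, 8 and 24 h and 3 at 15 h. These 3 were Creld2 (-0.58 ± 0.18, unadjusted p = 0.0045), Hspa5 (-0.50 ± 0.17, 0.00753) and Xbp1 (-0.35 ± 0.13, 0.0171), each with an adjusted p of at least 0.432.

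Creld2, Hspa5 and Xbp1 had the lowest of their means from mild 0 to 24 h at 15 h. The same held for Pdia4, Calr, Hsp90b1 and Manf, but not for Dnajb9 and Herpud1. Creld2 was at 0.57, 0.75 and 0.38 at mild 0 h, 0.21, 0.16 and 0.12 at 8 h, -0.65, -0.14 and -0.12 at 15 h, and 0.02, 0.04 and 0.15 at 24 h. Hspa5 was at 0.58, 0.58 and 0.27 at 0 h, 0.27, 0.25 and 0.17 at 8 h, -0.57, -0.18 and 0.01 at 15 h, and 0.03, 0.08 and 0.24 at 24 h. Replicate 1 of 15 h was the lowest array for both genes, and it also had the lowest proteasome and oxidative phosphorylation median of the mild arrays of 0 to 24 h (-0.18). On that same array Herpud1 had its highest value of the 18 arrays, 0.51, with -0.07 to 0.32 on all the others but control 2, at -0.08. Between mild 24 h and mild 0 h no member and 0% of features were called, although Xbp1, Hspa5, Creld2 and Manf were lower on every array of 24 h (4 of 9, where 7.28% of all features did so). The largest of these differences was that of Creld2, -0.50 ± 0.20 (unadjusted p = 0.0255, adjusted p = 0.616), and 1606 features reached an unadjusted p under 0.05.

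The controls themselves differed. Xbp1, Hspa5, Hsp90b1, Pdia4, Creld2 and Manf were higher on control 4 to 6 than on control 1 to 3, by log2 differences of 0.49 to 0.67. Of the members, 6 of 9 were called higher and none lower, where 11.5% of all features were called higher, and 7 of 9 lay wholly above control 1 to 3, where 24.5% of all features did. Xbp1 was at -0.0042, -0.26 and 0.22 on control 1 to 3 and at 0.54, 0.46 and 0.43 on control 4 to 6 (difference 0.49 ± 0.10, adjusted p = 0.0103). Hsp90b1 was at 0.12, -0.33 and 0.16 and at 0.52, 0.69 and 0.73 (0.67 ± 0.15, 0.0122). Creld2, which was not called on the severe arrays, was at -0.02, -0.37 and 0.31 and at 0.50, 0.67 and 0.54 (0.60 ± 0.15, 0.0163).

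Proteasome and oxidative phosphorylation genes moved with this difference. Their median lay between -0.22 and 0.15 on control 1 to 3 and between 0.37 and 0.40 on control 4 to 6, and 48 of 73 were called higher. Scaled to them, no member was called, although 14156 of all features were, with a median of -0.36 over all features. The median over the members fell from 0.49 to 0.10, and Dnajb9 (-0.27), Herpud1 (-0.11) and Calr (-0.05) changed sign. With the chip as a block no member was called either, with a member median of 0.47 and 6 calls over all features. Control 5 and 6 were on chip 3, which held none of control 1 to 3. On chip 2, which held control 4 beside control 2 and 3, the members differed by 0.02 (Dnajb9) to 0.60 (Hsp90b1). Without control 2, the lowest array, no member was called, without control 6 there was 1 and without control 5 there were 2. Leaving out any 1 control gave 122 to 3407 calls over all features, beside 2586 with all controls. Markers of other cells moved with the members too, beside the 11.5% of all features called higher. Microglia markers were higher in 4 of 9 (list medians -0.12 to 0.15 on control 1 to 3 and 0.71 to 0.90 on control 4 to 6), and fibroblast and meningeal markers in 7 of 19 (-0.41 to 0.16 and 0.20 to 0.49), with Lum at 0.80 (adjusted p = 0.0107) and Dcn at 0.57 (0.0277). Neuron markers were higher in 4 of 14 (-0.02 to 0.08 and 0.22 to 0.31), with Tubb3 at 0.55 (adjusted p = 0.0155). The part of these cells was not tested.

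Which controls serve as reference decided the calls after mild injury. Against control 1 to 3 alone, which keep their label in either order, 3 members were higher at mild 0 h, where 1045 of 21864 features were called in either direction: Creld2 (0.60 ± 0.15, adjusted p = 0.0309), Manf (0.45 ± 0.11, 0.033) and Hspa5 (0.50 ± 0.14, 0.0478). Against control 4 to 6 alone, 6 members were lower at mild 15 h, where 2310 of 21864 features were called in either direction, among them Creld2 (-0.88 ± 0.15, adjusted p = 0.002), Xbp1 (-0.59 ± 0.10, 0.00219) and Hspa5 (-0.78 ± 0.14, 0.00255), while Herpud1 (-0.10 ± 0.12, 0.697) and Dnajb9 (-0.12 ± 0.12, 0.654) did not pass. At 8 and 24 h no member was called against either reference. Over all features, 26 were called at 8 h against control 1 to 3 and 0 against control 4 to 6. At 24 h these counts were 0 and 68.

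**Figure D5:**
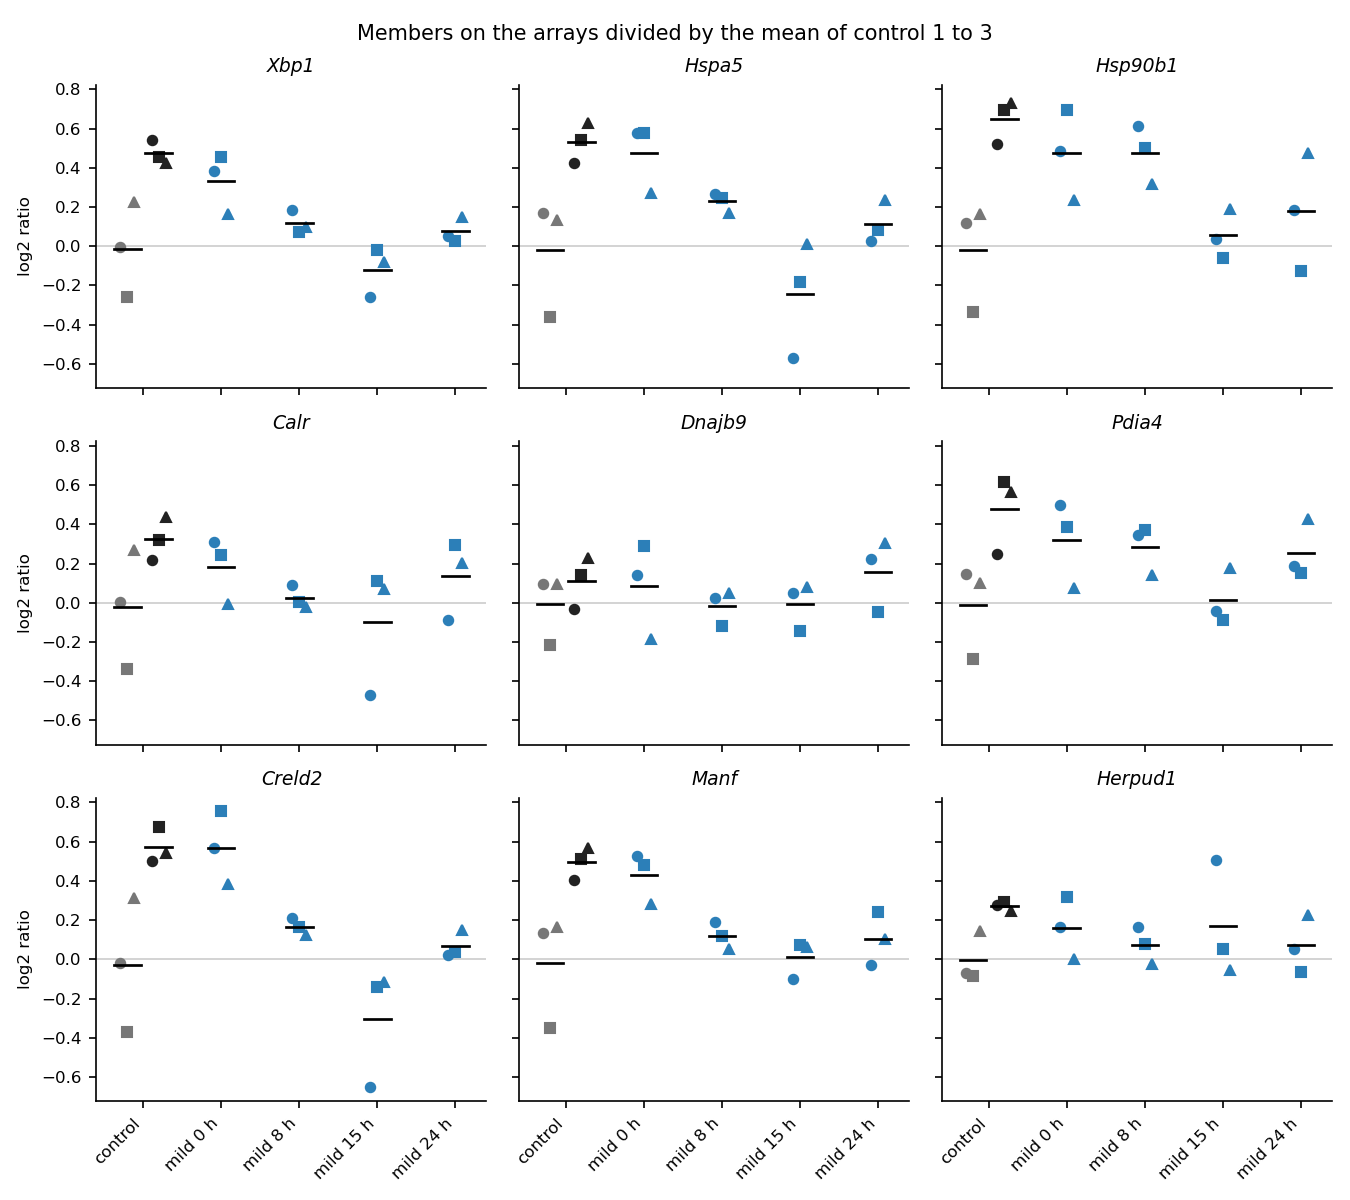
Log2 ratio to the mean of control 1 to 3, for the 9 measured members by group. Each point is 1 array (circle, square and triangle for replicate 1, 2 and 3, and for control 4, 5 and 6), with control 1 to 3 in grey, control 4 to 6 in black and mild injury in blue, and black bars are means of the 3 arrays. For 7 members control 4 to 6 lie wholly above control 1 to 3, and Creld2 at mild 15 h reaches -0.65 while Herpud1 reaches 0.51 on the same array.

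The change from 8 to 24 h is free of the divisor, so that severe and mild injury could be set side by side in it. No member was called, and 0% of all features were (limma, 862 at an unadjusted p under 0.05, none of them a member). The severe change minus the mild one lay between -0.35 ± 0.26 (Dnajb9) and 0.25 ± 0.31 (Hspa5), with -0.21 ± 0.23 for Xbp1.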

How the data were processed

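Labelled RNA of 34 samples was measured on Illumina RatRef-12 V1 arrays. The authors deposited 1 linear ratio per probe and array (22226 probes). That the divisors are control 1 to 3 and mild 48 h was found from the values, since only these triples average 1 at every probe within 0.0001. Background correction, normalization and filters are not given in the sources used here. From the signal table the deposited probe descriptions were taken for naming, and its 34 columns of values, which match no sample's name, were used only to compare the order of the arrays (each matched a ratio column at a correlation of at least 0.9999 of its log2 differences). Chips were read from the labels.

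Ratios were put on the log2 scale as deposited, and probes of a gene were averaged (354 genes with several), which gave 21864 features. The platform annotation named 13192 probes, a RefSeq accession 363 and the description 8563, and 108 had no name. Differences between groups were tested in R 4.3.3 by limma 3.58.1 (1 mean per group, all arrays of a set, two-sided, Benjamini-Hochberg over all features, adjusted p under 0.05), which was tested on simulated data. Differences are log2 differences ± SE. Figures used Python 3.11.15, pandas 2.3.3 and matplotlib 3.10.9.

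Members, gene lists and tests were chosen with earlier results of these data known. All members were described, with every measured sensor and transcription factor, the 3 genes of each role list with the smallest adjusted p in the severe average, the 8 genes most like the member mean and the 2 markers of each list with the largest difference, of which 1 is not reported here.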

Additional observations from a re-analysis of the deposited data

How the results depend on the processing

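Xbp1 was called lower in the severe average and at severe 48 h under every alternative run. In the average, no alternative reversed a called member. The count of called members, 5, was 4 to 7 except with the chip as a block (1) or without a mild 48 h array (leaving out 1 array gave 1 to 6). Over all features, the 3165 calls became 1447 with the chip as a block and 2077 to 4124 without 1 array. At severe 48 h the count of 2 members became 6 when centred on housekeeping genes (proteasome and oxidative phosphorylation) or fitted on all 34 arrays. It became 1 on the compared arrays only or with the chip as a block, and 1 to 5 without 1 array. Over all features the 2452 calls became 2417, 3729, 1480 and 906 in that order, and 1716 to 3264 without 1 array. At 8 h the count of 1 member became 4 by quantile normalization, 7 by centring and 7 on compared arrays only. On all arrays it became 4, and with the replicate block 2. At 15 h it became 2, 7, 4 and 2 under the first 4 of these. At 24 h it became 4, 6, 6, 4 and 2 under these 5, and 2 with a pseudocount of 0.1. Leaving out 1 array gave 1 at 8 and 15 h and 1 to 2 at 24 h. Calls over all features moved as well. Under the first 4 settings they went from 1881 to 1430, 2076, 3103 and 2907 at 8 h. At 15 h they went from 2367 to 1419, 2527, 3979 and 3622. At 24 h they went from 2012 to 1413, 2273, 2987 and 3135. The chip as a block left 1 member at each of these times, with 813, 965 and 909 features called. Dnajb9 at 48 h turned to 0.10 by quantile normalization and 0.0078 by centring (-0.30 to 0.27 without 1 array), Creld2 to 0.0293 by quantile normalization (-0.38 to 0.16 without 1 array). In the average Creld2 ran from -0.16 to 0.0138 without 1 array, and with the severe arrays low in neuron markers left out Dnajb9 was at 0.0856 and Creld2 at 0.15. The cause of these shifts was not tested.

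Mild 0 h gave 3 called members against control 1 to 3 (1045 features in all). Mild 15 h gave 6 against control 4 to 6 (2310) and 0 to 3 without 1 array (0 to 398). Control 4 to 6 against control 1 to 3 gave 0 members by quantile normalization, centring, all 34 arrays or the chip block. Over all features these settings called 18, 14156, 6 and 6. Leaving out 1 array gave 0 to 7 members there and 122 to 3407 features. Centring moved the median of all features from 0.04 to -0.36 there and from -0.02 to 0.25 between severe 48 and 8 h, and gave 14156 calls over all features instead of 2586. Dnajb9 reversed to -0.0006 (quantile), -0.27 (centred) and -0.0312 (chip), Herpud1 to -0.11 and Calr to -0.0453 (centred).

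Replicate numbers were not taken to pair the arrays: correlations of same-numbered deviations ran from -0.69 to 0.75 over all pairs of groups. They were all over 0.1 between severe 15 and 48 h (0.23, 0.54 and 0.75), and of mixed sign between mild 48 h and each severe time. With the replicate block 6 members were called in the severe average, and 3176 features in all. The block could not be fitted for the controls, whose numbers are the groups compared. Ratios carry no signal over background, and the scanner signals were not used for it, so dim probes were not told from measured ones. Precision is limited by how few arrays each group has.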

Other observations

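The 1 array labelled severe 0 h entered no comparison. Its log2 ratios to the mean of the arrays labelled mild 48 h were -1.52 for Xbp1, -1.06 for Herpud1, -0.86 for Pdia4, -0.66 for Hsp90b1, -0.56 for Manf, -0.42 for Hspa5, -0.29 for Calr, -0.14 for Dnajb9 and 0.11 for Creld2. Its neuron marker median was -1.40. Among the 12 later severe arrays, only replicate 2 of severe 48 h had a lower Xbp1 value.

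The probe that the deposited description calls Sdf2l1 and the platform annotation calls Ccdc116 ran from -0.39 to 0.08 on the severe arrays of 8 to 48 h and from -0.02 to 0.04 on mild 48 h, a difference of -0.12 ± 0.10 (limma, adjusted p = 0.52). It was higher on control 4 to 6 (0.29, 0.25 and 0.36) than on control 1 to 3 (0.05, -0.09 and 0.04), by 0.30 ± 0.09 (adjusted p = 0.0311).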
